A study of Mus musculus with 31 samples.

Results

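The secreted angiogenic factors described here are 10 genes, chosen by symbol from the 60172 genes listed in any of 3 deposited count tables, and all 10 were found in each table. Vegfa, Vegfb, Vegfc and Pgf encode ligands of the vascular endothelial growth factor (VEGF) family. Adm (adrenomedullin) and Angptl4 (angiopoietin-like 4) encode further secreted regulators of vessels, Fgf2, Pdgfa and Pdgfb encode growth factors, and Thbs1 encodes the secreted angiogenesis inhibitor thrombospondin 1. The 10 genes were followed through 31 RNA-seq libraries of Panc02, a murine pancreatic adenocarcinoma cell line. The first table held spheroids grown in control medium (Ctrl, n = 3) or in conditioned medium of bone marrow macrophages from C57BL/6J mice. The macrophages were unstimulated (M0-CM, n = 3) or stimulated with IFNγ and LPS (M1-CM, n = 3), and the table asked what soluble macrophage products do to the spheroids. By the study's methods both conditioned media also held culture supernatant of another cell line, which is not listed for the control medium. In comparisons with Ctrl its part cannot be told apart from that of macrophage products. A second table held wild-type (WT) cells and Cxcl5 knockout (Cxcl5-/-) cells grown on plastic (2D) or as spheroids in Matrigel (3D), with 3 libraries in each of the 4 groups, and addressed the role of Cxcl5 in 3D growth. The third table, called the overexpression experiment below, held 3D WT (n = 2), 3D Cxcl5-/- (n = 2), and 3D Cxcl5-/- cells that overexpressed a mutant Hif1a (Hif1a OE, n = 3) or Myc (Myc OE, n = 3), and asked what either factor does in Cxcl5-deficient spheroids. The knockout was made with a lentiviral CRISPR vector and puromycin selection, and both overexpression groups carry the knockout as well. The labels name the line Panc02 for the first 2 tables, but for the overexpression experiment they give each library a different name, from Panc03 to Panc12. The study describes Panc02 cells only. The study's methods do not state whether the knockout cells were 1 clone, and the labels do not state whether libraries of a group came from separate cultures, so that the p-values measure the spread between these libraries, which may be technical.

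VEGF ligands bind receptor tyrosine kinases on endothelial cells. VEGF-A is the principal driver of vessel sprouting and placental growth factor (PGF) binds the receptor FLT1. Vegfa, Adm and Angptl4 are among the classical genes that hypoxia-inducible factors switch on in cells short of oxygen, a state that the core of a spheroid can reach. Adrenomedullin acts on endothelial cells through CALCRL and RAMP proteins, and ANGPTL4 inhibits lipoprotein lipase besides its effects on vessels. Basic fibroblast growth factor (FGF2) is a mitogen for endothelial cells, PDGF-A and PDGF-B recruit mesenchymal cells and pericytes through PDGF receptors, and thrombospondin 1 restrains endothelial cells through CD36 and CD47.

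The libraries held 41542533 to 78498230 counts assigned to genes. Levels are given in CPM, the usual scale of read counts relative to the library total, with each total scaled by the trimmed mean of M-values (TMM), and a gene was called changed at an adjusted p below 0.05 in edgeR's quasi-likelihood test over all genes of its table. The spread is ± SE for a log2 fold change and ± SD for a level. Cxcl5 mRNA, which a frameshift need not lower, went against the label in 3D culture: it was 28.5, 24.5 and 28.04 CPM in 3D WT but 65.5, 40.9 and 45.4 CPM in the 3D libraries labelled Cxcl5-/-, although in the overexpression experiment, it was lower in the knockout (36.6 and 40.2 CPM) than in WT (64.2 and 67.7 CPM). In 3D, Hif1a mRNA averaged 369 CPM in WT and 159.6 CPM in the libraries labelled Cxcl5-/-, and Myc mRNA 35.0 and 10.4 CPM. The group names below are therefore those of the labels. In the overexpression experiment Hif1a mRNA was 304 and 324 CPM in WT, 144 and 133 CPM in Cxcl5-/- and 258, 296 and 243 CPM in Hif1a OE, yet also 241, 271 and 262 CPM in Myc OE, and Myc mRNA rose from 22.3 and 20.02 CPM to 548, 525 and 397 CPM in Myc OE. Summed epithelial marker RNA (8 genes) was 854 to 1098 CPM in 3D WT and 218 to 238 CPM in the 3D libraries labelled Cxcl5-/-. Epcam and Cdh1 were at 3 counts or fewer in the latter, as they were in both 2D groups and throughout the first table. Summed fibroblast marker RNA (6 genes) was 73.0 to 75.8 CPM in 3D WT and 204 to 235 CPM in 3D Cxcl5-/-. Of 5 fibroblast markers tested between these groups, only Pdgfra was called higher and 3 were called lower. Spheroids of the first table summed to 222 to 558 CPM (epithelial) and 276 to 378 CPM (fibroblast), though levels are not tested across tables. The 7 endothelial markers summed to 4.57 CPM at most in any library, and the 7 macrophage markers to 1.94 to 26.0 CPM.

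Growth as spheroids raised 4 of the 9 factors that had enough counts to be tested, and the 3D libraries labelled Cxcl5-/- held less of 5 of them. In 3D WT against 2D WT, Vegfa, Pgf, Adm and Fgf2 were higher and Pdgfb was lower, where 44.3% of all 21367 genes tested were called (22.2% higher and 22.0% lower). In 3D Cxcl5-/- against 3D WT, Vegfa, Pgf, Angptl4, Adm and Pdgfb were lower while Vegfb and Thbs1 were higher, against 45.0% of all genes called (19.7% higher and 25.3% lower). Between the genotypes in 2D only Angptl4, which was lower, and Pdgfa, which was higher, were called of the 9, against 7.03% of all genes (3.86% higher and 3.17% lower). From 2D to 3D in the cells labelled Cxcl5-/- 5 factors rose and 2 fell, against 57.0% of all genes called (28.7% higher and 28.2% lower). With library totals 7 rose and 2 fell, but the median over all genes then moved up too, as given below. Whether the genotype effect depends on culture was tested as the effect in 3D minus that in 2D, and this difference was called for 6 of the 9 factors, 5 of them negative and Vegfb positive, and for 27.2% of all genes (11.1% positive and 16.1% negative). With library totals in place of TMM 3 were positive and 3 negative, since Vegfa and Pdgfa were then not called while Angptl4 and Thbs1 were called as positive. The comparisons within this table share groups, so that their counts are not independent. Scaled by library totals in place of TMM, the median log2 fold change of all genes was -0.21 instead of 0.00 for 3D WT over 2D WT (3563 genes higher and 6712 lower, against 4752 and 4707), from -0.04 to 0.35 in 3D Cxcl5-/- against 3D WT (7671 and 2445, against 4218 and 5397), from 0.11 to 0.26 between 3D and 2D in the cells labelled Cxcl5-/- and from -0.05 to 0.32 in the difference of genotype effects (4585 and 1359, against 2376 and 3431).

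In the overexpression experiment, the libraries labelled Cxcl5-/- again held less Vegfa, Pgf, Angptl4, Adm, Pdgfa and Pdgfb than WT and more Vegfb and Thbs1, where 41.9% of 28730 genes were called (17.6% higher and 24.3% lower). Without Cxcl5-/- replicate 1, 5 of these 8 were called, since Vegfb, Pdgfa and Pdgfb then missed the threshold. Against Cxcl5-/-, Hif1a OE raised Vegfa, Pgf, Angptl4 and Adm and lowered Thbs1, against 35.5% of all genes called (20.5% higher and 15.0% lower). Myc OE raised those 4 as well as Pdgfa and Pdgfb, and lowered Thbs1, against 39.6% (21.6% higher and 18.0% lower). Compared directly, Myc OE held more Pdgfa and Pdgfb and less Vegfa, Angptl4 and Thbs1 than Hif1a OE, against 19.3% (9.54% higher and 9.73% lower), and 3 of these 5 were called without Myc OE replicate 1. Against WT, 4 factors were called in Hif1a OE and 8 in Myc OE, where 24.2% (13.9% higher and 10.3% lower) and 31.8% (17.1% higher and 14.7% lower) of all genes were called, and DESeq2's Wald test called 7 in each. With library totals the all-gene median went from 0.16 to 0.00 in Hif1a OE against Cxcl5-/- (4335 genes higher and 5604 lower, against 5904 and 4308), from 0.11 to -0.11 in Myc OE against Cxcl5-/- (4271 and 7482, against 6205 and 5167) and from -0.01 to -0.13 in Myc OE against Hif1a OE (1982 and 3504, against 2742 and 2796). Against WT the splits moved too, to 2209 higher and 3587 lower in Hif1a OE (from 4001 and 2961) and 2477 and 6217 in Myc OE (from 4903 and 4225), and DESeq2 size factors gave 2584 and 3798, and 3739 and 5115.

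**Figure D1:**
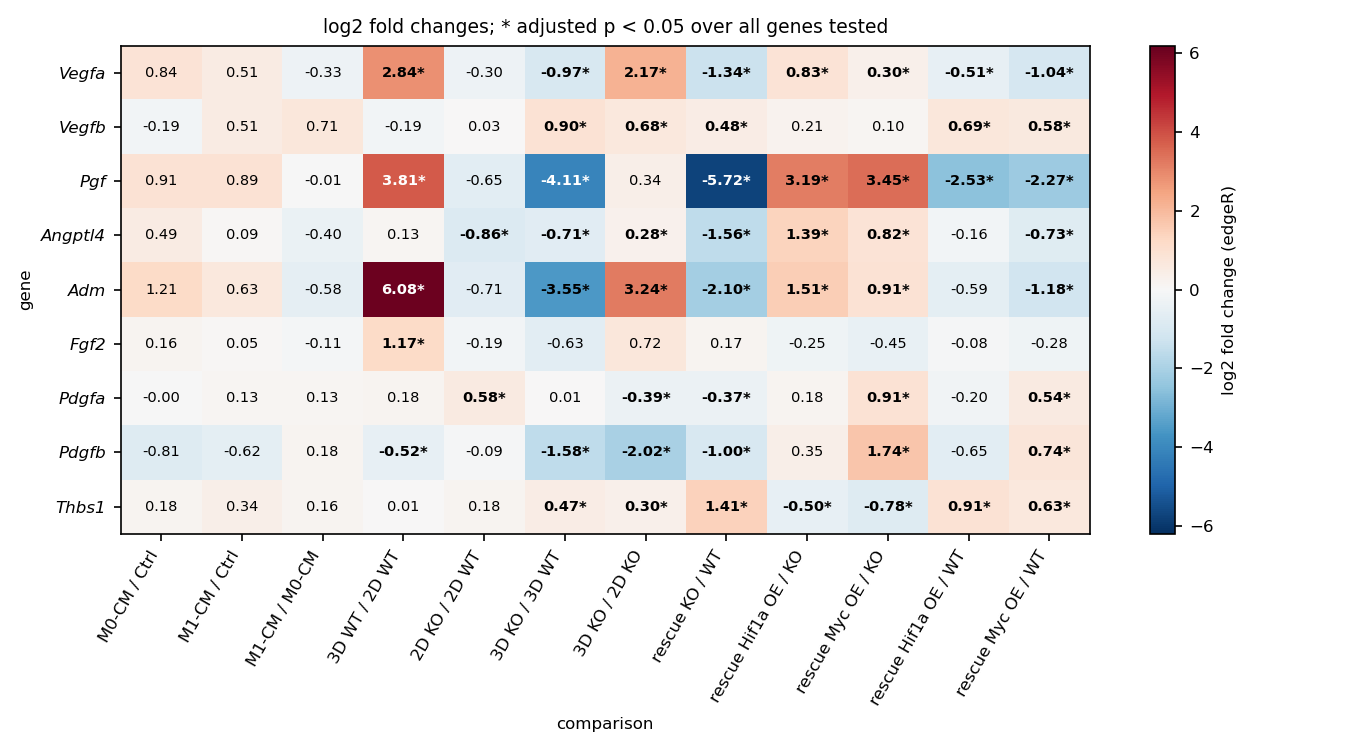
Log2 fold changes of the 9 tested factors (rows) in the comparisons (columns), from edgeR's fit within each table. Colour gives the direction and size, and a star marks an adjusted p below 0.05. No star appears in the conditioned medium columns, and the strongest colours lie in the Pgf and Adm rows.

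The promoters of 3 factors are shown because Vegfa, Vegfb and Adm gave different patterns across culture and genotype: Vegfa and Adm rose in 3D WT and were lower in the 3D libraries labelled Cxcl5-/-, and Vegfb did the reverse in the latter. Each sequence is the 250 bases before a RefSeq transcript start (GRCm38.p6), 5′ to 3′ on the gene's strand, taken from windows that overlap no annotated exon. Capitals mark GCGTG, the core of the element that hypoxia-inducible factors bind, or its reverse complement CACGC. The other form of this core, ACGTG, and the canonical E-box that Myc binds, CACGTG (whose last 5 bases are that form), were searched on both strands as well.
Vegfa promoter chr17:46032378-46032627 (- strand): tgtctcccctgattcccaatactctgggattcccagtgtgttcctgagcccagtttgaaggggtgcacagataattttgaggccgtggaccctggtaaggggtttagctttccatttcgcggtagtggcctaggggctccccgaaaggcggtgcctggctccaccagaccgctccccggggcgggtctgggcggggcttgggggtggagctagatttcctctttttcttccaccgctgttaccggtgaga
Vegfb promoter chr19:6987652-6987901 (- strand): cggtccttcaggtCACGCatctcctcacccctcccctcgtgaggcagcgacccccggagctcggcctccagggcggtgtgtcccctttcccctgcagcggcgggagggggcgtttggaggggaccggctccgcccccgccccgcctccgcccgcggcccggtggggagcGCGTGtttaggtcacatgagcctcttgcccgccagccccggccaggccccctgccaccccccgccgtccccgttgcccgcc
Adm promoter chr7:110627407-110627656 (+ strand): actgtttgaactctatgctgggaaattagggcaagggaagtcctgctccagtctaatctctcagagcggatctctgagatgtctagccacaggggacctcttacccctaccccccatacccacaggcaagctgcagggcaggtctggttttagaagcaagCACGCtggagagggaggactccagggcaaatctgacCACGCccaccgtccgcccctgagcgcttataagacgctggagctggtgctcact
This Vegfa window held neither core, while another Vegfa window (chr17:46025164-46025413, - strand), which overlaps a Vegfa exon and is not shown, held both. The Vegfb window held GCGTG once on each strand, and the Adm window held CACGC at 2 positions. RefSeq windows were at hand for 7 of the 10 factors, 10 windows in all, of which 6 held one of the cores. Among all 32851 promoter windows of this length, 38.6% held one or the other core, and 6.02% held the E-box, which none of the 10 windows contained. Sequence beyond these windows was not searched, so that a window without a core does not mean a gene without one. A match is only a match of letters.

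Levels between genes were compared per kilobase of merged exons. Thbs1 ranked first in every group, and in 3D WT its mean was 431 CPM per kb. Vegfa followed in 3D WT at 88.7 CPM per kb, then Adm at 23.5, and Pgf (15.4), Angptl4 (14.9) and Pdgfa (13.4), whose libraries overlapped from one to the next. Vegfb (6.80), Pdgfb (2.35) and Fgf2 (0.374 CPM per kb) came below without overlap. In 2D WT the second place was open between Angptl4 (13.6) and Vegfa (12.4), which overlapped. Pdgfa (11.8 CPM per kb) overlapped Vegfa but not Angptl4, and Adm stood at 0.339 CPM per kb, below Pgf at 1.10. Vegfc, the ligand that drives lymphatic vessel growth, was at 0 counts in 30 of 31 libraries and at 2 counts in the remaining one, M1-CM replicate 3. The limit that a count of 0 allows, 3 counts, came to 0.0381 to 0.0701 CPM, so that Vegfc was not detectable at this depth and could not be tested.

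Vegfa (chr17:46016993-46032369, - strand; GRCm38, GENCODE M21 annotation) was measured in 2D WT at 59.1, 47.6 and 52.5 CPM and in 2D Cxcl5-/- at 44.5, 40.3 and 44.6 CPM. In 3D WT the values were 436, 351 and 354 CPM, and in the 3D libraries labelled Cxcl5-/- they were 194, 199.7 and 188 CPM. The 3D groups overlapped neither each other nor either 2D group. Vegfa was 7.17-fold up on 2D WT in 3D WT (log2 fold change 2.84 ± 0.11, adjusted p = 5.36e-10) and 4.50-fold higher in 3D than in 2D in the cells labelled Cxcl5-/- (log2 fold change 2.17 ± 0.11, adjusted p = 2.54e-09). Within 3D it was lower in the libraries labelled Cxcl5-/- (log2 fold change -0.97 ± 0.10, adjusted p = 5.52e-06), whereas in 2D the genotypes were not called different (log2 fold change -0.30 ± 0.10, adjusted p = 0.118). The genotype effect was more negative in 3D than in 2D by -0.67 ± 0.15 on the log2 scale (adjusted p = 0.00414), but with library totals in place of TMM this difference was -0.30 with an adjusted p of 0.19. In bulk RNA, fewer cells of a type and less RNA per cell cannot be told apart, and the part that the epithelial and fibroblast marker RNA given above has in these results was not tested.

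The overexpression experiment gave Vegfa at 386 and 375 CPM in WT, while the libraries labelled Cxcl5-/- held 160.0 and 141 CPM. Hif1a OE held 263, 265 and 274 CPM and Myc OE 173, 188 and 194 CPM. The 4 groups did not overlap, in the order Cxcl5-/-, Myc OE, Hif1a OE and WT. Cxcl5-/- was below WT (log2 fold change -1.34 ± 0.09, adjusted p = 1.5e-06), Hif1a OE was 1.78-fold above Cxcl5-/- (log2 fold change 0.83 ± 0.09, adjusted p = 2.44e-05), and Hif1a OE was below WT (log2 fold change -0.51 ± 0.08, adjusted p = 0.00157). Myc OE was 1.23-fold above Cxcl5-/- (log2 fold change 0.30 ± 0.09, adjusted p = 0.0165), a call lost without Cxcl5-/- replicate 2 (0.22, adjusted p = 0.21) and turned to -0.04 with library totals. Myc OE was below Hif1a OE (log2 fold change -0.53 ± 0.08, adjusted p = 0.00052).

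Vegfb encodes a VEGF ligand that binds FLT1 and contributes little to sprouting, and lies at chr19:6982473-6987651, - strand. Its level was 13.3, 11.9 and 12.3 CPM in 2D WT, 12.7, 13.6 and 12.002 CPM in 2D Cxcl5-/- and 9.75, 11.0 and 12.03 CPM in 3D WT. The 3D libraries labelled Cxcl5-/- held 18.6, 25.5 and 17.2 CPM and lay above every library of the other 3 groups. Vegfb was 1.87-fold higher there than in 3D WT (log2 fold change 0.90 ± 0.14, adjusted p = 0.000173), and the genotype effect was greater in 3D than in 2D by 0.87 ± 0.20 on the log2 scale (adjusted p = 0.00608). WT in the overexpression experiment held 20.8 and 19.0 CPM, Cxcl5-/- 31.2 and 24.4 CPM, Hif1a OE 31.9, 34.4 and 30.2 CPM and Myc OE 32.0, 29.4 and 28.1 CPM. Every library with the knockout exceeded both WT libraries, and the Hif1a OE and Myc OE libraries overlapped the range of Cxcl5-/-. Cxcl5-/- against WT was called (log2 fold change 0.48 ± 0.13, adjusted p = 0.0115) but not without WT replicate 2 (0.43, adjusted p = 0.085) or Cxcl5-/- replicate 1 (0.29, adjusted p = 0.15). Neither Hif1a OE (0.21 ± 0.12, 95% interval -0.07 to 0.49) nor Myc OE (0.10 ± 0.12, 95% interval -0.18 to 0.38) was called different from Cxcl5-/-. Without Cxcl5-/- replicate 1 Hif1a OE was called (0.41, adjusted p = 0.049).

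Pgf (chr12:85166635-85177790, - strand) gave the greatest genotype difference in 3D culture among the 9 factors tested, in both experiments. Levels were 3.08, 2.73 and 3.75 CPM in 2D WT, 2.10, 1.91 and 2.10 CPM in 2D Cxcl5-/-, 54.2, 36.2 and 43.8 CPM in 3D WT and 2.76, 1.96 and 3.02 CPM in the 3D libraries labelled Cxcl5-/-. Among these groups only the 3D WT libraries were high, and those labelled 3D Cxcl5-/- lay within the range spanned by the 2D libraries. Ctrl spheroids of the first table held Pgf at 2.81 to 8.28 CPM, though levels are not tested across tables. By the study's methods their medium also held less serum than that of the 3D WT spheroids. Pgf was 14.0-fold up on 2D WT in 3D WT (log2 fold change 3.81 ± 0.19, adjusted p = 4.72e-09) and far lower in 3D Cxcl5-/-, set against 3D WT (log2 fold change -4.11 ± 0.20, adjusted p = 4.29e-09). From 2D to 3D in the cells labelled Cxcl5-/- the change was 0.34 ± 0.19 (95% interval -0.10 to 0.78, adjusted p = 0.14), and the genotype effects in 3D and 2D differed by -3.46 ± 0.26 (adjusted p = 1.63e-06). The former was called without 3D Cxcl5-/- replicate 2 (0.51, adjusted p = 0.038), with library totals (0.48, adjusted p = 0.034) and with at least 10 counts in every library (0.46, adjusted p = 0.036). In 2D the libraries of the genotypes did not overlap, but the difference missed the threshold (log2 fold change -0.65 ± 0.19, adjusted p = 0.0579). It passed with DESeq2 (adjusted p = 0.029), with at least 10 counts (adjusted p = 0.040) and with the replicate number as a block (adjusted p = 0.016). Pgf in the overexpression experiment was 50.2 and 46.6 CPM in WT and 1.02 and 0.812 CPM, from 49 and 40 counts, in Cxcl5-/- (log2 fold change -5.72 ± 0.31, adjusted p = 2.24e-07). Hif1a OE held 6.76, 10.7 and 7.57 CPM and Myc OE 8.42, 13.0 and 8.71 CPM, all above Cxcl5-/- and all far below WT. Pgf was 9.13-fold higher in Hif1a OE than in Cxcl5-/- (log2 fold change 3.19 ± 0.28, adjusted p = 7.01e-06) and 10.9-fold higher in Myc OE (log2 fold change 3.45 ± 0.28, adjusted p = 2.85e-06), and Hif1a OE stayed below WT by -2.53 ± 0.22 on the log2 scale (adjusted p = 2.47e-05). Hif1a OE and Myc OE were not called different (0.26 ± 0.20, 95% interval -0.22 to 0.74).

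**Figure D2:**
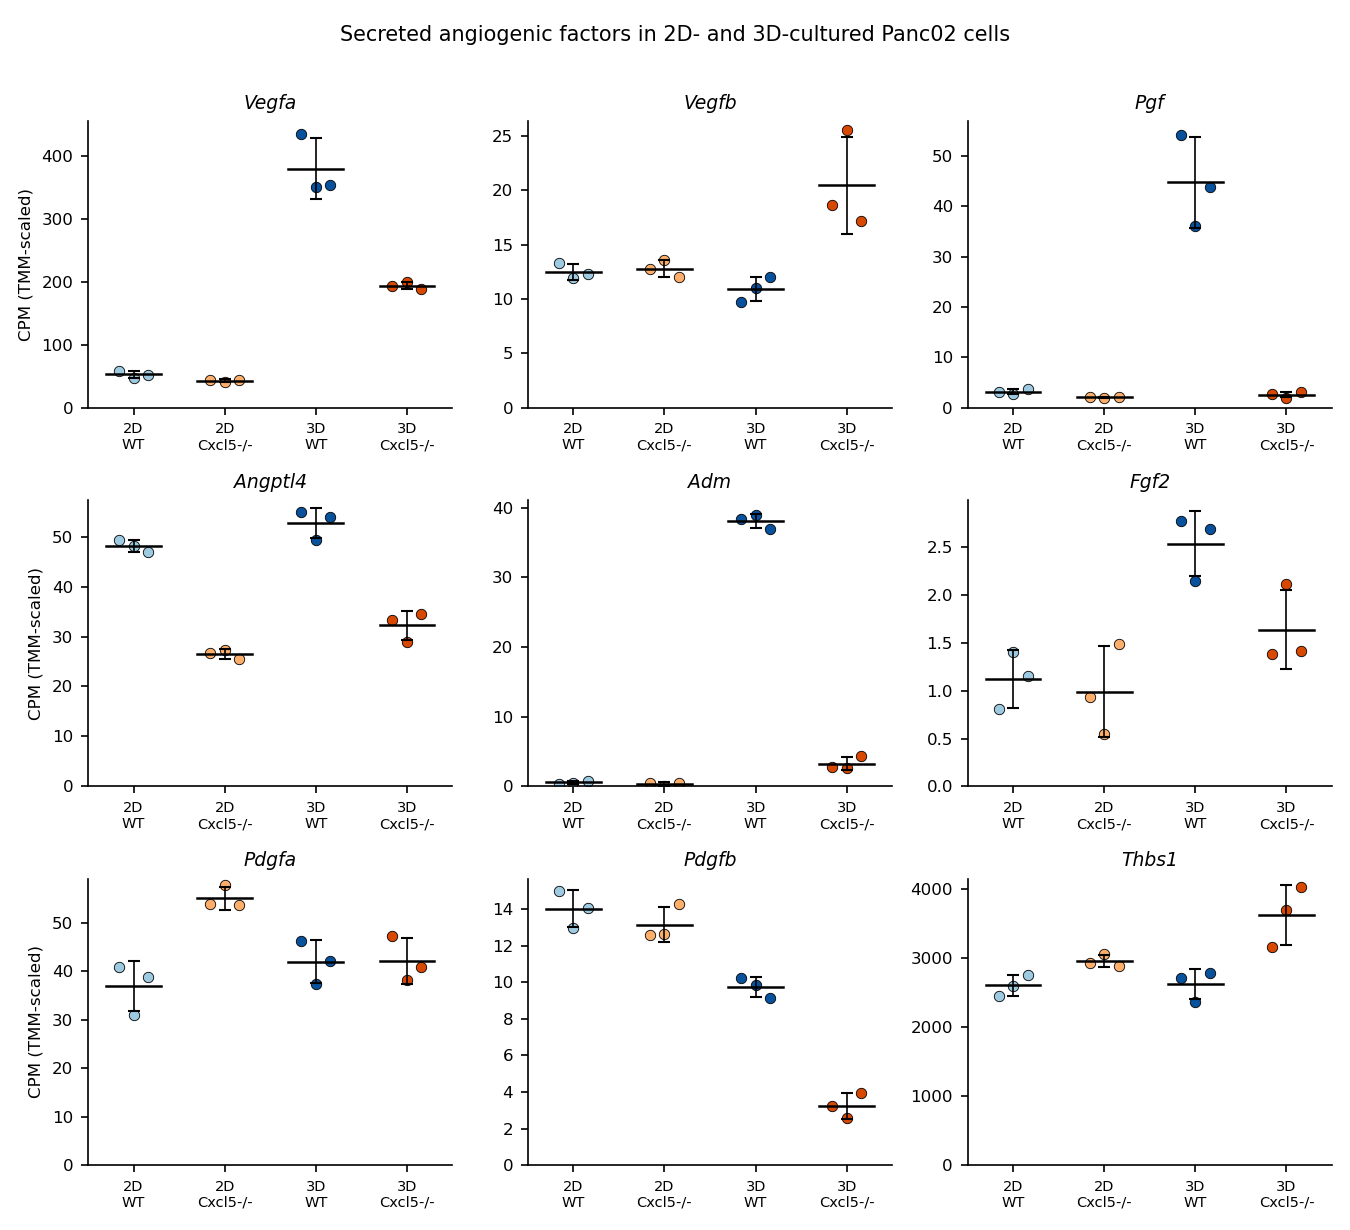
Level (CPM, linear axis from 0) of 9 factors in 2D and 3D culture, 1 panel a gene. Points are libraries, lines are group means and bars are SD (n = 3). Pgf and Adm are high only in 3D WT, and Vegfa falls from 351 to 436 CPM in 3D WT to 188 to 199.7 CPM in the 3D libraries labelled Cxcl5-/-.

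Adm (chr7:110627661-110629820, + strand, overlapped on the other strand by Gm28863) was nearly silent in 2D, at 0.366, 0.489 and 0.793 CPM in WT and 0.519, 0 and 0.493 CPM (35, 0 and 32 counts) in Cxcl5-/-. In 3D WT it reached 38.3, 39.0 and 36.9 CPM, and in the 3D libraries labelled Cxcl5-/- it was 2.81, 2.58 and 4.34 CPM. Adm was 67.8-fold up on 2D WT in 3D WT (log2 fold change 6.08 ± 0.50, adjusted p = 4.11e-07), the largest change among the 9 factors in any comparison run, and the 3D libraries labelled Cxcl5-/- fell short of 3D WT (log2 fold change -3.55 ± 0.43, adjusted p = 1.66e-05). It still rose with 3D culture in the cells labelled Cxcl5-/- (log2 fold change 3.24 ± 0.51, adjusted p = 0.000103). The 3D and 2D genotype effects differed by -2.84 ± 0.72 (adjusted p = 0.0105), which rests on 2D libraries with few counts: without 2D Cxcl5-/- replicate 1 it was -2.35 with an adjusted p of 0.069, and DESeq2 gave an adjusted p of 0.059. Ctrl spheroids of the first table held 2.45 to 8.93 CPM and the WT libraries of the overexpression experiment 8.54 and 7.63 CPM. Both lay below the 3D WT libraries given above, though levels are not tested across tables and the Ctrl medium held less serum. Cxcl5-/- held 1.93 and 1.85 CPM, Hif1a OE 5.35, 6.66 and 4.08 CPM and Myc OE 3.21, 2.96 and 4.49 CPM, so that both overexpression groups lay between Cxcl5-/- and WT and overlapped each other. Hif1a OE was 2.84-fold above Cxcl5-/- (log2 fold change 1.51 ± 0.26, adjusted p = 0.000814) and Myc OE 1.88-fold (log2 fold change 0.91 ± 0.26, adjusted p = 0.0147), the latter not called without either Cxcl5-/- replicate (adjusted p = 0.069 and 0.088) or with library totals (0.59, adjusted p = 0.085). Myc OE was not called different from Hif1a OE (log2 fold change -0.59 ± 0.22, adjusted p = 0.0862). The difference was called with library totals (adjusted p = 0.048), with at least 10 counts (adjusted p = 0.043) and without replicate 3 of Hif1a OE or of Myc OE (adjusted p = 0.039 and 0.035).

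Angptl4 (chr17:33773750-33781830, - strand), unlike Adm, was not called different between 3D WT and 2D WT (log2 fold change 0.13 ± 0.08, adjusted p = 0.212), at 55.0, 49.3 and 54.0 CPM against 49.4, 48.1 and 46.9 CPM. The libraries labelled Cxcl5-/- were low in both cultures, at 26.8, 27.3 and 25.5 CPM in 2D and 33.3, 28.9 and 34.4 CPM in 3D, with no overlap with WT. The genotype effect was -0.86 ± 0.08 in 2D (adjusted p = 1.46e-05) and -0.71 ± 0.08 in 3D (adjusted p = 1.2e-05), and the effects were not called different (0.15 ± 0.12, 95% interval -0.12 to 0.42). With library totals they were (0.52, adjusted p = 0.0055). Angptl4 was 1.22-fold higher in 3D than in 2D in the cells labelled Cxcl5-/- (adjusted p = 0.0101), but not without 3D Cxcl5-/- replicate 3 (adjusted p = 0.068). Angptl4 in the overexpression experiment stood at 39.8 and 44.8 CPM in WT and 14.0 and 14.7 CPM in Cxcl5-/- (log2 fold change -1.56 ± 0.18, adjusted p = 4.47e-05). Hif1a OE held 31.2, 44.8 and 37.3 CPM, which overlapped WT (-0.16 ± 0.16, 95% interval -0.55 to 0.22), and Myc OE 24.4, 30.0 and 22.0 CPM, below every WT library. Angptl4 was thus 2.63-fold higher than in Cxcl5-/- with Hif1a OE (log2 fold change 1.39 ± 0.17, adjusted p = 5.75e-05) and 1.77-fold with Myc OE (log2 fold change 0.82 ± 0.16, adjusted p = 0.00177). Myc OE was below Hif1a OE (log2 fold change -0.57 ± 0.14, adjusted p = 0.015), a call lost without Myc OE replicate 1 or 3 (adjusted p = 0.055 and 0.058).

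**Figure D3:**
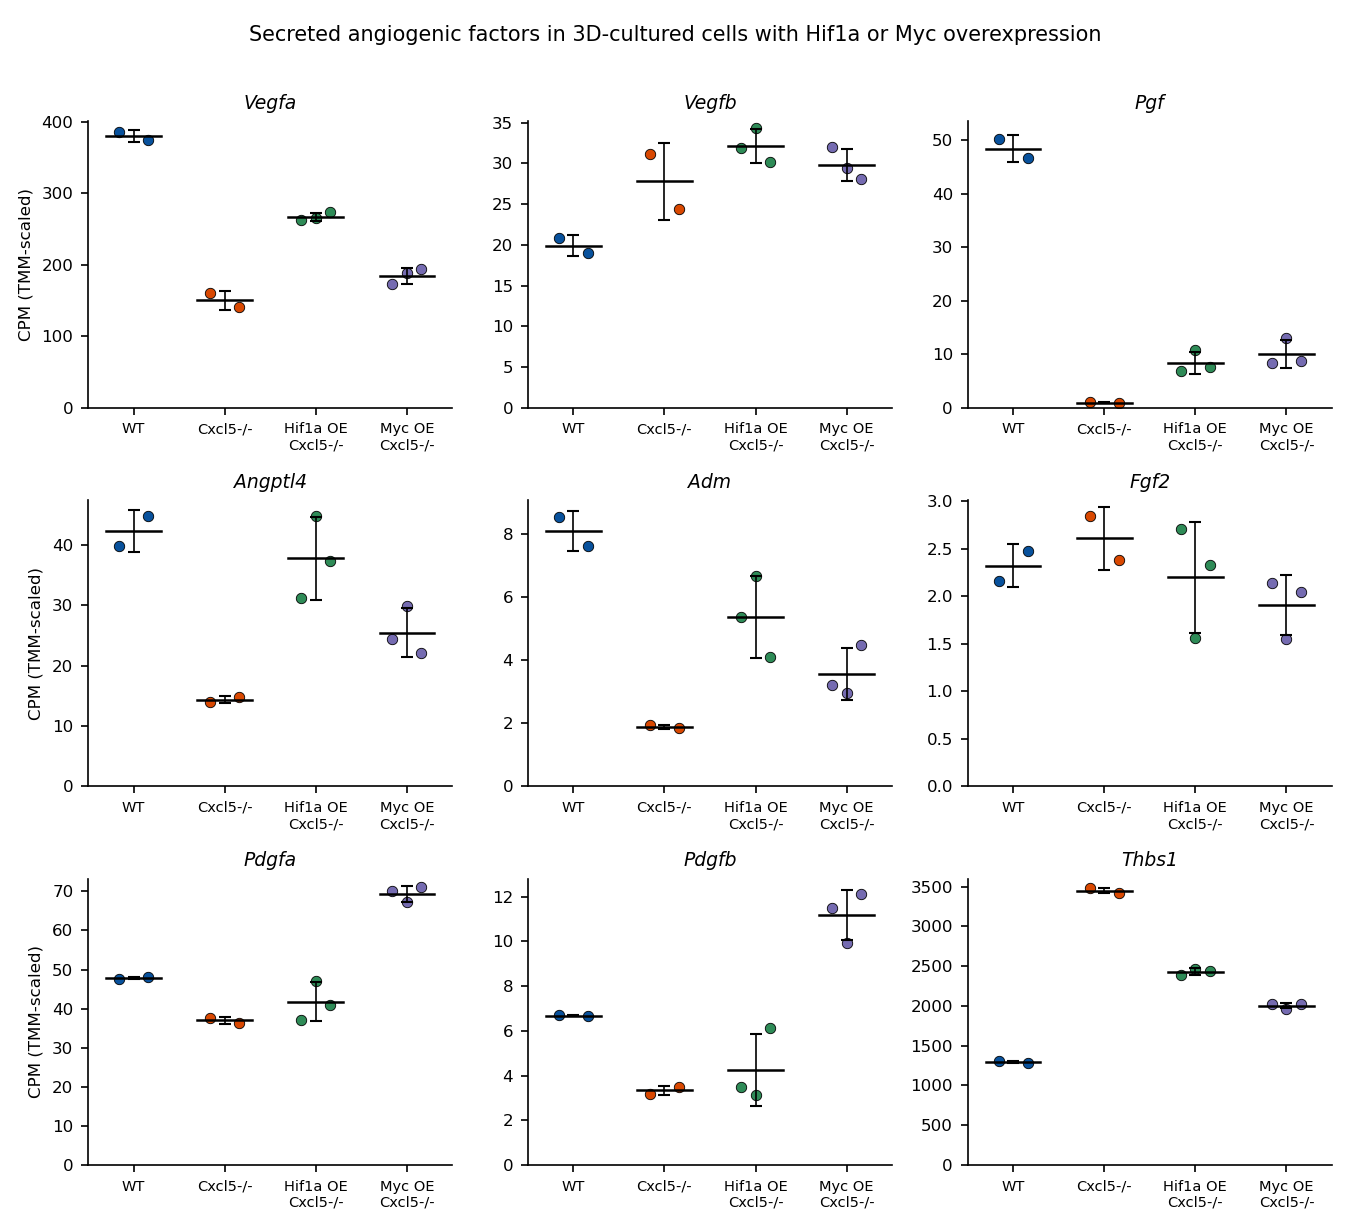
Level (CPM, linear axis from 0) of 9 factors in the overexpression experiment, 1 panel a gene. Points are libraries, lines are group means and bars are SD (n = 2 or 3). Pgf stays at 13.0 CPM or below in both overexpression groups against 46.6 CPM or more in WT, and Thbs1 is lowest in WT.

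Fgf2 (chr3:37348346-37410108, + strand, overlapped by 4 annotated genes including Fgf2os and Nudt6) had few counts, from 0.547 to 2.77 CPM over the 12 libraries of 2D and 3D culture. It was 0.809, 1.41 and 1.15 CPM in 2D WT and 2.77, 2.15 and 2.69 CPM in 3D WT, without overlap (log2 fold change 1.17 ± 0.33, adjusted p = 0.0111). The 3D libraries labelled Cxcl5-/- held 1.39, 2.11 and 1.42 CPM, all below 3D WT, but the difference was not called (-0.63 ± 0.33, 95% interval -1.39 to 0.12, adjusted p = 0.135). From 2D to 3D in the cells labelled Cxcl5-/- the change was 0.72 ± 0.33 (adjusted p = 0.081). It was called with library totals (adjusted p = 0.0497), with at least 10 counts (adjusted p = 0.034) and without 2D Cxcl5-/- replicate 3 (1.14, adjusted p = 0.013). In the overexpression experiment the libraries spanned 1.54 to 2.84 CPM and Fgf2 was called in none of the comparisons by edgeR (0 also at an unadjusted p under 0.05, and 0 by DESeq2). Since strand handling at the counting step was not given in the sources used here, reads of the overlapping genes cannot be told apart.

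Pdgfa (chr5:138976014-138997370, - strand, overlapped on the other strand by 6330403L08Rik) was higher in 2D Cxcl5-/-, at 53.8, 57.7 and 53.6 CPM, than in 2D WT, at 40.8, 31.02 and 38.9 CPM (log2 fold change 0.58 ± 0.12, adjusted p = 0.00657). In 3D the genotypes overlapped, with 46.3, 37.4 and 42.02 CPM in WT and 47.3, 38.1 and 40.7 CPM in the libraries labelled Cxcl5-/- (0.01 ± 0.12, 95% interval -0.26 to 0.27). With library totals the latter were called higher (0.39, adjusted p = 0.0060). The difference between these effects was -0.57 ± 0.16 (adjusted p = 0.0196), not called with library totals (-0.21, adjusted p = 0.29), with no filter on low counts (adjusted p = 0.087) or without 2D Cxcl5-/- replicate 1 or 3D Cxcl5-/- replicate 2 (adjusted p = 0.055 and 0.068). Pdgfa in the overexpression experiment was 47.7 and 48.1 CPM in WT, 37.6 and 36.3 CPM in Cxcl5-/-, 37.2, 47.1 and 40.9 CPM in Hif1a OE and 70.0, 67.2 and 71.1 CPM in Myc OE. Myc OE stood above all the others, 1.88-fold over Cxcl5-/- (log2 fold change 0.91 ± 0.10, adjusted p = 2.39e-05) and 1.66-fold over Hif1a OE (log2 fold change 0.73 ± 0.09, adjusted p = 0.00013). The lower level in Cxcl5-/- than in WT (log2 fold change -0.37 ± 0.11, adjusted p = 0.0172) was not called when any of the 4 libraries was left out (adjusted p from 0.069 to 0.12).

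Pdgfb (chr15:79995874-80014977, - strand, overlapped by Mir7213 and Gm41361) fell with 3D culture, from 15.0, 13.0 and 14.1 CPM in 2D WT to 10.3, 9.88 and 9.15 CPM in 3D WT (log2 fold change -0.52 ± 0.14, adjusted p = 0.00835). It was 12.6, 12.6 and 14.3 CPM in 2D Cxcl5-/- and 3.23, 2.55 and 3.97 CPM in the 3D libraries labelled Cxcl5-/-, the lowest of the 4 groups. Within 3D it was lower in the libraries labelled Cxcl5-/- than in WT (log2 fold change -1.58 ± 0.15, adjusted p = 1.79e-06), in 2D it was not called different (-0.09 ± 0.14, 95% interval -0.42 to 0.23), and the effects differed by -1.49 ± 0.20 (adjusted p = 0.000152). Pdgfb in the overexpression experiment was 6.71 and 6.65 CPM in WT, 3.20 and 3.49 CPM in Cxcl5-/- and 3.49, 3.15 and 6.11 CPM in Hif1a OE, whose replicate 3 stood apart. Myc OE held 11.5, 9.94 and 12.1 CPM and exceeded every other library, 3.34-fold over Cxcl5-/- (log2 fold change 1.74 ± 0.27, adjusted p = 0.000282) and 2.63-fold over Hif1a OE (log2 fold change 1.40 ± 0.23, adjusted p = 0.00114). Cxcl5-/- against WT was called with all libraries (log2 fold change -0.998 ± 0.28, adjusted p = 0.0156) but without either Cxcl5-/- replicate it was not (adjusted p = 0.090 and 0.060). Hif1a OE was not called different from Cxcl5-/- (0.35 ± 0.26), and without Hif1a OE replicate 3 that value was -0.01. Without that replicate Hif1a OE was called below WT (-1.01, adjusted p = 0.00267, against -0.65 ± 0.25 and 0.0787 with it).

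Thbs1 (chr2:118111876-118127133, + strand, overlapped on the other strand by Gm29233) was the inhibitor among the 10 and moved against Vegfa between genotypes in 3D. It stood at 2456, 2604 and 2762 CPM in 2D WT and 2709, 2372 and 2781 CPM in 3D WT, which overlapped (0.01 ± 0.10, 95% interval -0.21 to 0.23). In 2D Cxcl5-/- it was 2934, 3060.0 and 2884 CPM and in the 3D libraries labelled Cxcl5-/- 3164, 3698 and 4032 CPM, the highest of the 4 groups. Thbs1 was 1.39-fold higher there than in 3D WT (log2 fold change 0.47 ± 0.10, adjusted p = 0.00124), and the genotype effects in 3D and 2D were not called different (0.29 ± 0.13, 95% interval -0.02 to 0.60), except without 3D Cxcl5-/- replicate 1 (0.33, adjusted p = 0.038) and with library totals (0.67, adjusted p = 0.0090). In the overexpression experiment the contrast was wider, with 1304 and 1283 CPM in WT and 3476 and 3423 CPM in Cxcl5-/- (log2 fold change 1.41 ± 0.09, adjusted p = 9.56e-07). Hif1a OE held 2391, 2466 and 2438 CPM and Myc OE 2019.9, 1966 and 2020.4 CPM, between the other groups and without overlap. Both were below Cxcl5-/- (log2 fold change -0.50 ± 0.08, adjusted p = 0.000587 for Hif1a OE, and log2 fold change -0.78 ± 0.08, adjusted p = 1.82e-05 for Myc OE) and both stayed above WT (0.91 ± 0.09 and 0.63 ± 0.09, adjusted p = 4.85e-05 and 0.000261). The difference between Myc OE and Hif1a OE (log2 fold change -0.28 ± 0.08, adjusted p = 0.0222) was not called without Hif1a OE replicate 1 or Myc OE replicate 1 or 2 (adjusted p = 0.057, 0.051 and 0.083) or with these groups fitted alone (adjusted p = 0.059).

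Macrophage conditioned medium changed none of the 9 factors by edgeR at an adjusted p below 0.05, where 0.0156% of 19207 genes were called in M1-CM against Ctrl, 0.0156% in M1-CM against M0-CM and 0% in M0-CM against Ctrl. DESeq2 called none of them either, and at an unadjusted p under 0.05 edgeR gave 1 factor in M1-CM against Ctrl (Pdgfb), 0 in M1-CM against M0-CM and 3 in M0-CM against Ctrl (Vegfa, Adm and Pdgfb). Of all 19207 genes, 903, 498 and 569 passed this unadjusted threshold in the same order. By contrast Cxcl5 mRNA was 6.76-fold higher in M1-CM than in Ctrl (log2 fold change 2.76 ± 0.17, adjusted p = 0.000474). Vegfa was 271, 119 and 296 CPM in Ctrl, 341, 395 and 494 CPM in M0-CM and 275, 295 and 408 CPM in M1-CM. Ctrl replicate 2 was far below the other Ctrl libraries, and M1-CM overlapped both groups, with intervals of -0.26 to 1.29 for M1-CM against Ctrl and 0.06 to 1.62 for M0-CM against Ctrl on the log2 scale. Adm was likewise low in Ctrl replicate 2 (6.57, 2.45 and 8.93 CPM in Ctrl, 8.66, 14.0 and 18.7 CPM in M0-CM and 5.59, 9.19 and 13.0 CPM in M1-CM). Pdgfb was the only factor whose Ctrl libraries, at 5.68, 6.17 and 5.65 CPM, all lay above those of M0-CM (2.75, 4.09 and 3.18 CPM) and of M1-CM (4.39, 3.89 and 3.09 CPM). The log2 fold changes were -0.81 ± 0.25 (adjusted p = 1) and -0.62 ± 0.25 (adjusted p = 0.965). Fgf2 was at 68, 152 and 4 counts in Ctrl and 86, 86 and 4 counts in M1-CM, so that replicate 3 of both groups held almost none.

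**Figure D4:**
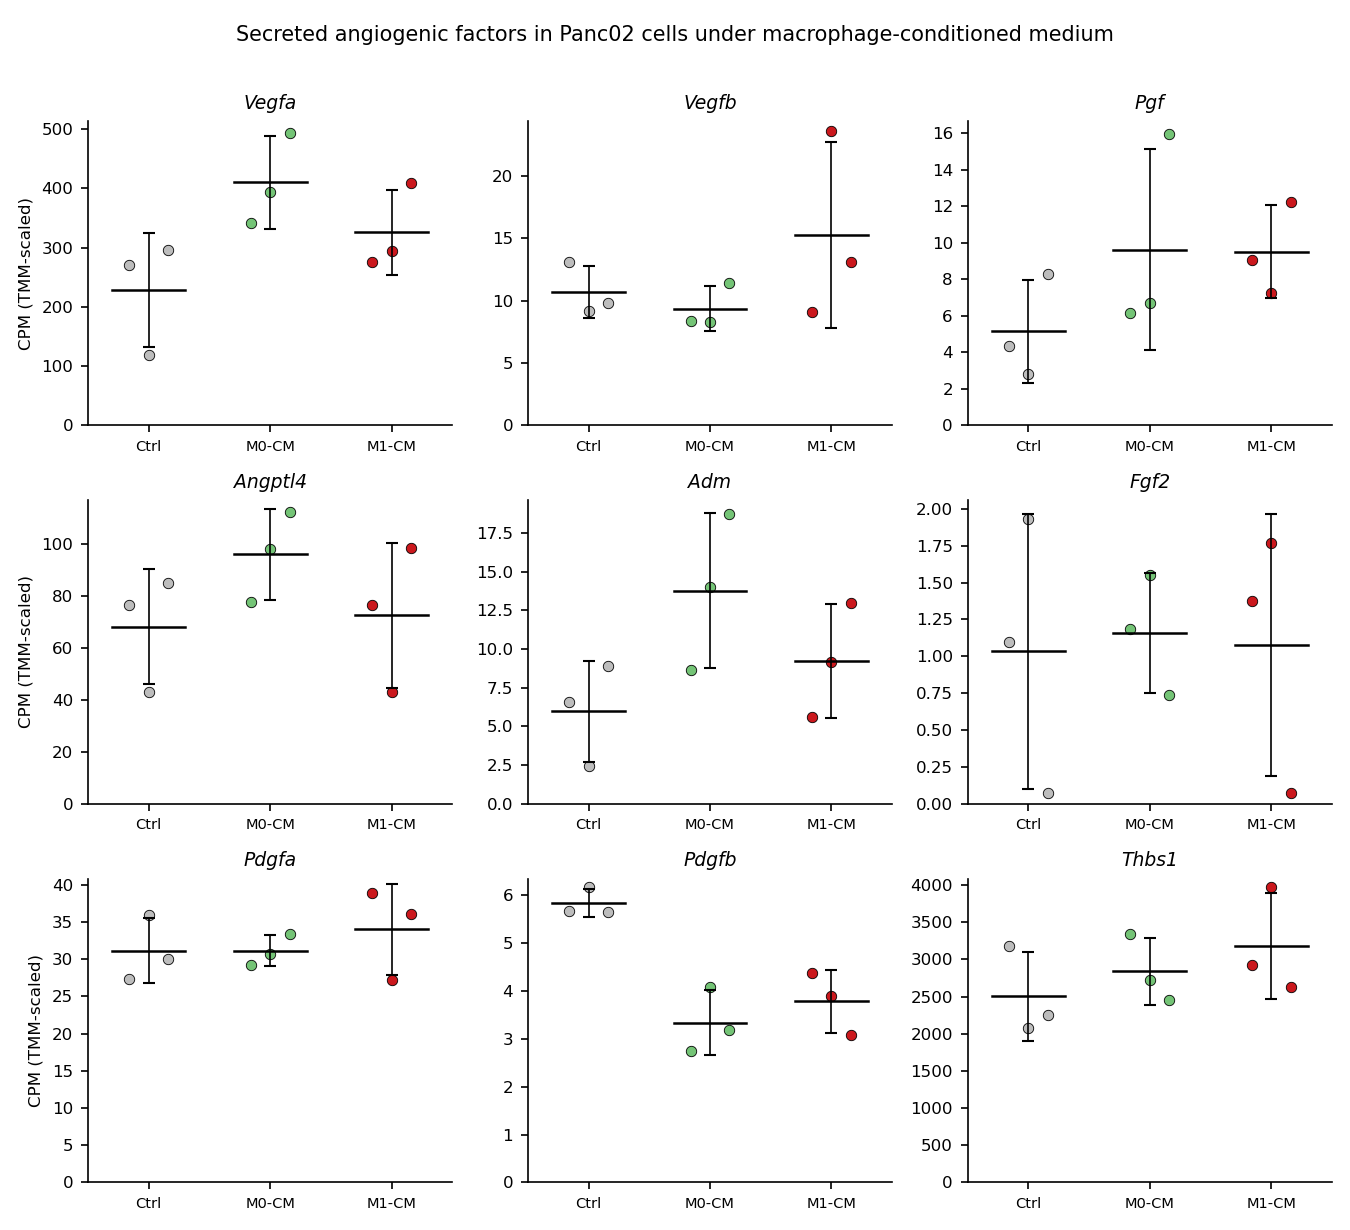
Level (CPM, linear axis from 0) of 9 factors in spheroids in control medium, M0-CM and M1-CM, 1 panel a gene. Points are libraries, lines are group means and bars are SD (n = 3). Groups overlap in most panels, and Pdgfb is the factor whose 3 control libraries lie above all 6 in conditioned medium.

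Other genes of the same system were read from fixed lists of further secreted angiogenic ligands (22 genes), secreted inhibitors (8), receptors (20) and reference targets of hypoxia-inducible factors (13). From 2D WT to 3D WT 10 of 17 tested ligands rose and 4 fell, with a median log2 fold change of 0.94 beside 0.00 over all genes. Of all genes 22.2% were called higher and 22.0% lower. Apln, which encodes the vascular peptide apelin, rose from 6.32, 5.62 and 6.74 to 126, 98.0 and 115 CPM (log2 fold change 4.18 ± 0.12, adjusted p = 4.34e-11), and Angptl6 (3.92), Adm2 (2.84) and Hgf (2.33) rose too. All 13 hypoxia reference targets rose, with a median of 2.52. Car9, a carbonic anhydrase, went from 0.250, 0.388 and 0.362 to 22.6, 24.6 and 32.9 CPM (log2 fold change 6.29 ± 0.25, adjusted p = 5.99e-10), and Ero1a (4.79), Ankrd37 (4.71) and Ndrg1 (4.59) followed. Of the inhibitors 2 of 6 rose and 2 fell, and of the receptors 3 of 12 rose and 4 fell, the calls on Angpt2, Nrp1, Ramp1, Sparc and Flt1 being lost under another scaling. Mdk, a ligand that fell, was at 0 counts in 3D WT, and Aplnr, a receptor that rose, was at 0 counts in 2D WT.

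In the 3D libraries labelled Cxcl5-/- against 3D WT, 11 of 17 ligands were lower and 5 higher (median -1.26, beside -0.04 over all genes), 5 of 6 inhibitors and 5 of 12 receptors were higher with none lower, and 12 of 13 hypoxia reference targets were lower with none higher (median -1.13). With library totals 11 of the 13 were lower. Of all genes 25.3% were called lower and 19.7% higher. Mdk, among the higher ligands, was at 0 counts in 3D WT. Hbegf, an epidermal growth factor receptor ligand, was 56.2, 49.0 and 51.4 CPM in 3D WT and 8.69, 8.63 and 8.84 CPM in 3D Cxcl5-/- (log2 fold change -2.58 ± 0.09, adjusted p = 3.66e-10), and Adm2 was lower as well (-2.20). Hgf, the ligand of the receptor MET, had 525, 443 and 631 counts in 3D WT and 1, 0 and 1 counts in 3D Cxcl5-/-. Ccn2, a matricellular protein, moved the other way (3.35). Among inhibitors Serpinf1, which encodes pigment epithelium-derived factor, went from 6.77, 5.91 and 5.85 to 35.2, 27.8 and 30.0 CPM (log2 fold change 2.33 ± 0.13, adjusted p = 2.25e-08), and Thbs2 (2.55), Adamts1 (0.57) and Col18a1 (0.51) were higher too. Pdgfra, which is also 1 of the 6 fibroblast markers, was the receptor with the largest change of those tested (20.4, 23.6 and 20.1 CPM against 194, 225 and 223 CPM, log2 fold change 3.33 ± 0.10, adjusted p = 7.36e-11), and Ramp1 (1.62), Pdgfrb (1.22) and Nrp1 (0.67) were higher too. Summed epithelial marker RNA was lower and summed fibroblast marker RNA higher in the same libraries. Of 5 fibroblast markers tested, however, Pdgfra was the only 1 called higher, while 3 were called lower (median -1.06). The part of either marker set in these results was not tested. In 2D 4 of 17 ligands were higher and 3 lower in Cxcl5-/-, 3 of 6 inhibitors were higher, 1 of 12 receptors was lower, and 1 of 13 hypoxia targets was higher and 3 lower. Of all genes 3.86% were called higher and 3.17% lower. Hgf, among the lower ligands, was at 0 counts in 2D Cxcl5-/-.

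In the overexpression experiment all 13 hypoxia reference targets were lower in Cxcl5-/- than in WT (median -1.16, beside -0.30 over all genes), 11 of them with library totals. Among 21 ligands 10 were lower and 7 higher, among 7 inhibitors 4 were higher and 1 lower, and among 19 receptors 5 moved each way. Over all genes 24.3% were called lower and 17.6% higher. Of the lower genes, Fgf1, Hgf, Cxcl12, Tnfsf15, Kdr, Flt4 and Fgfr2 were at 0 counts in every Cxcl5-/- library. These passed the low-count filter through other groups, with means of 0.513 to 2.93 CPM in WT. Hif1a OE raised 7 of the 13 hypoxia targets and lowered none (median 0.41, beside 0.16), although 1 was called lower with DESeq2 size factors and 2 with library totals. Slc2a1, the glucose transporter GLUT1, was 62.9 and 54.8 CPM in Cxcl5-/-, 168, 148 and 162 CPM in Hif1a OE (log2 fold change 1.44 ± 0.13, adjusted p = 9.6e-06) and 183, 209 and 251 CPM in Myc OE. Myc OE raised 11 of the 13 (median 1.25, beside 0.11), with Car9 going from 3.22 and 3.55 to 61.0, 95.1 and 55.8 CPM (log2 fold change 4.38 ± 0.33, adjusted p = 1.89e-06), while Car9 in Hif1a OE was 2.86, 4.02 and 5.66 CPM. Of the 21 ligands Hif1a OE raised 8 and lowered 6 and Myc OE raised 4 and lowered 8. Over all genes 20.5% were called higher and 15.0% lower with Hif1a OE, and 21.6% and 18.0% with Myc OE. Hgf and Cxcl12, among the ligands that Hif1a OE raised, were at 0 counts in every Cxcl5-/- library. Hif1a OE lowered 4 of 7 inhibitors and raised none, and Myc OE lowered 4 and raised 1. Fibroblast marker RNA summed to 23.1 to 26.6 CPM in WT, 272 to 274 CPM in Cxcl5-/-, 29.2 to 45.2 CPM in Hif1a OE and 148 to 170 CPM in Myc OE. Epithelial marker RNA summed to 857 to 904, 288 to 303, 707 to 839 and 268 to 313 CPM in the same order. Their part in these results was not tested.

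**Figure D5:**
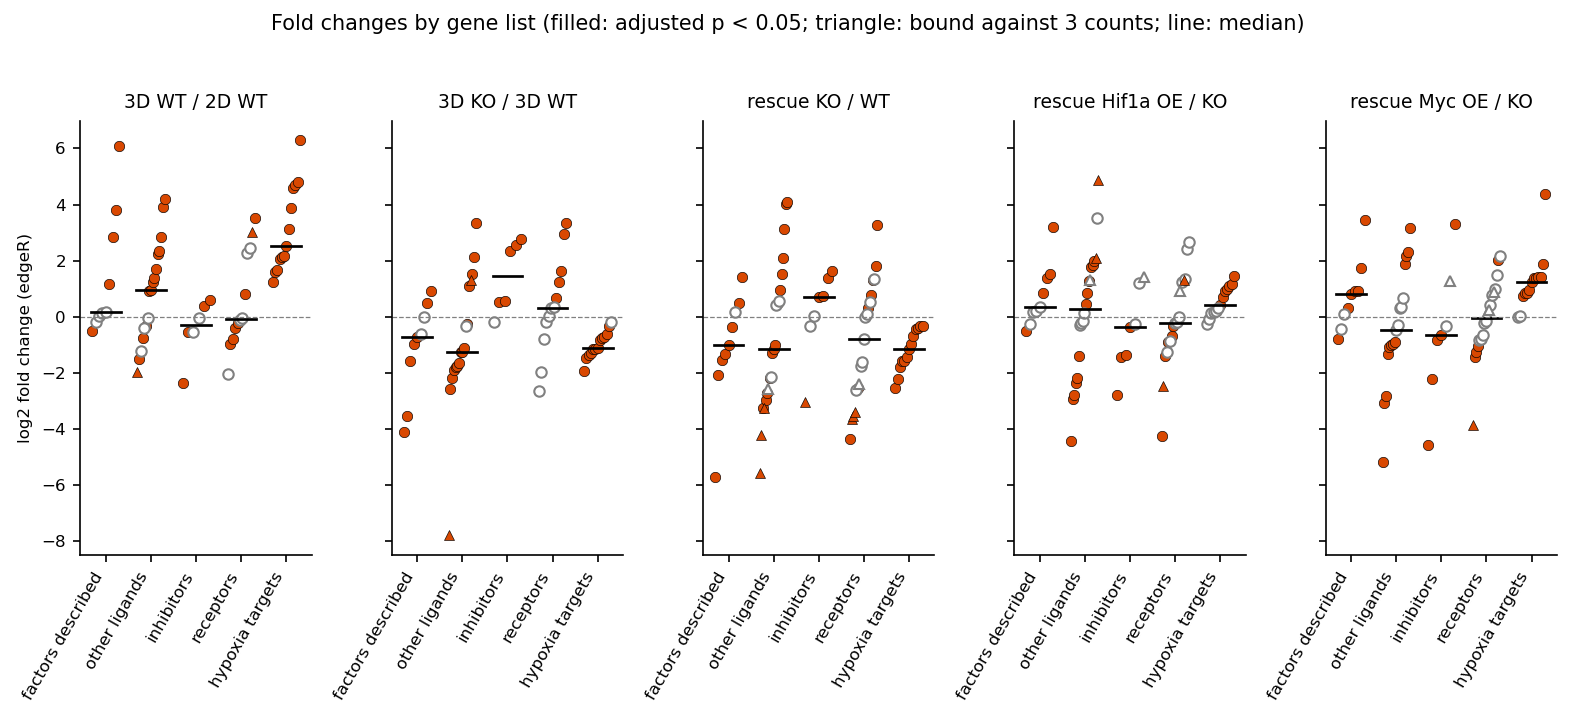
Log2 fold change (edgeR) of each gene by list in 5 comparisons, with the 9 factors described here at the left of each panel. Filled points are called at an adjusted p below 0.05, triangles are genes near 0 counts in 1 group, set against 3 counts, and lines are medians. All 13 hypoxia targets lie above 0 in the 3D WT panel.

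The genes whose profile over the 12 libraries of 2D and 3D culture was nearest to that of a factor were found among 14009 candidates by the root mean square difference of centred log2 levels. Slc2a1 was the nearest to Vegfa, with a difference of 0.145, followed by Rgs9 (0.161) and Gm6532 (0.189). For Angptl4 they were Plk2 (0.0861), Rnf19b (0.144) and Cyba (0.150). Adm had none as near, with Car6 at 0.400, Mgarp at 0.440 and Dcn at 0.451, over a range of 6.30 log2 units of its own. Thbs1, which itself spanned only 0.765, was nearest to Cipc (0.0628), Rab43 (0.0738) and Pigq (0.0793). These are descriptions over 12 libraries that fall into 4 groups.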

How the data were processed

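Total RNA was sequenced as 101-bp pairs by the authors, who aligned the reads to mouse GRCm38 (mm10) with HISAT2 and counted them per gene with StringTie. The versions, the annotation release and the strand setting of the counting were not given in the sources used here. The deposited values are raw counts per gene, 3 tables for 31 libraries (41542533 to 78498230 counts each), and no column was left unused. Genes were tested within each table with edgeR 4.0.16 (R 4.3.3): edgeR's low-count filter by group, TMM scaling, quasi-likelihood test over all groups of a table, Benjamini-Hochberg adjustment, and a call at an adjusted p below 0.05. SE was taken from the F statistic, and 95% intervals from it. The script was tested on simulated data. No libraries of a group held identical values, and all differed by more than counting noise. The members and gene lists were chosen with earlier results of these data known. Of each list at most 4 called genes a comparison were named, those with the largest change at a mean count of at least 50. Car9 and Slc2a1 in the overexpression experiment are given in Cxcl5-/-, Hif1a OE and Myc OE, and not in WT. Alternatives were DESeq2 1.42.0, 2 other scalings, other filters, a fold limit, a replicate block, the groups compared alone, and leaving out each library.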

Additional observations from a re-analysis of the deposited data

Results flagged for a closer look

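For 6 of the 9 tested factors the genotype effect differed between 3D and 2D culture by edgeR's test of the difference itself, the log2 fold change of the libraries labelled 3D Cxcl5-/- over 3D WT minus that of 2D Cxcl5-/- over 2D WT. This test called 27.2% of all genes (11.1% positive and 16.1% negative). Among the 6 factors the difference was -0.67 for Vegfa, -3.46 for Pgf, -2.84 for Adm, -0.57 for Pdgfa and -1.49 for Pdgfb, and 0.87 for Vegfb. Those of Vegfa, Adm and Pdgfa were not called under some alternatives, as given with each gene. With library totals Vegfa and Pdgfa were not called, and Angptl4 (0.52, adjusted p = 0.0055) and Thbs1 (0.67, adjusted p = 0.0090) were, so that 3 differences were positive and 3 negative. Under that scaling most of all genes called were positive, as given above. Groups held 2 or 3 libraries, so single libraries were not tested for standing apart.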

How the results depend on the processing

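Of the 1873 values of single factors under alternatives, 1720 kept their direction and their side of the threshold, 79 lost a call, 33 gained one and 41 changed sign. Of 64 called values, 48 were called under every alternative with the same call rule. Counts of factors under alternatives in this section are given without the share of all genes called under each. They compare settings and do not set the factors against other genes. Asking also for an absolute log2 fold change above 1 left 3 factors in 3D Cxcl5-/- against 3D WT, 0 between genotypes in 2D, 3 in 3D against 2D of Cxcl5-/-, 3 in the difference of genotype effects, 5 in Cxcl5-/- against WT of the overexpression experiment, 3 in Hif1a OE and 2 in Myc OE against Cxcl5-/-, 1 in Myc OE against Hif1a OE, and 1 in Hif1a OE and 3 in Myc OE against WT. Hif1a OE against WT gave 7 factors with DESeq2's Wald test, with DESeq2 size factors in edgeR and with at least 10 counts in every library, and Myc OE against WT gave 5 with library totals; the cause was not tested. Leaving out 1 library gave 5 to 7 factors in Cxcl5-/- against WT (5 without Cxcl5-/- replicate 1) and 3 to 6 in Myc OE against Hif1a OE (3 without Myc OE replicate 1), and where it left 1 library in a group, that library was assumed to vary like the others.

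None of the changes of sign was called on both sides. With M1-CM against M0-CM, Pgf (-0.01) was 2.3e-05 with DESeq2, 0.0054 with its size factors, 0.088 with library totals, 0.0038 with at least 10 counts, 0.097 with the replicate block and 0.014 with the groups compared alone, and Fgf2 was 0.033 with library totals. Library totals also gave Angptl4 -0.087, Pdgfa -0.035 and Thbs1 -0.21 in 3D WT over 2D WT, Vegfb -0.019 and Pdgfa -0.055 in Hif1a OE against Cxcl5-/-, and Vegfa -0.037 and Vegfb -0.24 in Myc OE against Cxcl5-/-. Over the libraries left out, values that changed sign ranged, for M1-CM against Ctrl, from -0.19 to 0.36 for Angptl4 and -0.52 to 0.89 for Fgf2. For M0-CM against Ctrl the ranges were -0.39 to 0.97 for Fgf2 and -0.086 to 0.10 for Pdgfa. For M1-CM against M0-CM they were -0.25 to 0.57 for Pgf, -0.67 to 0.44 for Fgf2 and -0.030 to 0.29 for Thbs1. Elsewhere the range was -0.015 to 0.099 for Thbs1 in 3D WT over 2D WT, and Fgf2 went from -0.57 to 0.12 between genotypes in 2D, Pdgfa from -0.12 to 0.11 between genotypes in 3D, Fgf2 from -0.26 to 0.11 in Hif1a OE against WT, Pdgfb from -0.011 to 0.53 in Hif1a OE against Cxcl5-/- and Vegfb from -0.054 to 0.30 in Myc OE against Cxcl5-/-.

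Correlations between libraries with the same replicate number averaged 0.072, 0.040 and 0.014 in the 3 tables and ranged from -0.36 to 0.53, -0.20 to 0.30 and -0.062 to 0.16. Libraries with different numbers averaged -0.032, -0.020 and -0.0074. With so few libraries a group, these values cannot decide whether libraries of the same number share a batch. The replicate block called 3 factors in place of 2 between genotypes in 2D, adding Pgf (-0.64, adjusted p = 0.016), 5 in place of 4 in Hif1a OE against WT and 7 in place of 8 in Myc OE against WT.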

Other observations

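Some values lay apart from the rest. Adm was at 0 counts in 2D Cxcl5-/- replicate 2 and at 35 and 32 counts in the other replicates of that group. Fgf2 was at 4 counts in Ctrl replicate 3 and in M1-CM replicate 3. Hgf was at 0 counts in every library of 2D Cxcl5-/-.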
